A study of Mus musculus with 20 samples.

Results

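De novo lipogenesis (DNL) is described here in *Cideb* fl/fl mouse liver by 10 genes, *Srebf1*, *Mlxipl*, *Acly*, *Acaca*, *Acacb*, *Fasn*, *Scd1*, *Elovl6*, *Thrsp* and *Me1*. They were chosen by symbol from the 50559 genes of the count table, and each was found there once. RNA was sequenced from 20 livers, 5 in each of 4 groups, and all mice carried the floxed *Cideb* allele. WT livers came from mice given AAV-TBG-GFP, and KO livers from mice given AAV-TBG-Cre. One WT and one KO group were fed Western diet (WD), which combines fat, sugar and cholesterol with sugar water. The other groups were fed CDA-HFD, which is rich in fat, has its protein as defined L-amino acids and lacks choline. The study's methods also describe CDA-HFD as deficient in methionine. The labels give 3 months for both diets, while the results text of the study gives such mice a longer time on WD than on CDA-HFD. The TBG promoter restricts Cre to hepatocytes, so other liver cells keep *Cideb*, and an age is not stated in the labels. The comparisons ask whether hepatocyte *Cideb* loss goes with a change in lipogenic mRNA on each diet, and how those mRNAs differ between the diets.

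DNL turns carbohydrate into fatty acid. Citrate that leaves the mitochondria is cleaved to acetyl-CoA, acetyl-CoA is carboxylated to malonyl-CoA, fatty acid synthase builds palmitate with NADPH, and elongation and desaturation then yield stearate and oleate for storage as triglyceride. In liver the pathway is induced by feeding through SREBP1c, which responds to insulin, and ChREBP, which responds to sugar.

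The gene counts of a liver summed to 11697049 to 16827147 reads. Levels are CPM, the counts per 1e6 counted reads, scaled by TMM factors over all 20 livers. *Cideb* was 6.06 ± 1.12 CPM in WT livers against 0.155 ± 0.165 CPM in KO livers of the WD groups, and 3.05 ± 0.653 and 0.163 ± 0.154 CPM in those of the CDA-HFD groups (mean ± SD, n = 5 each). The KO libraries held 0 to 5 *Cideb* reads on WD and 0 to 6 on CDA-HFD, against 52 to 100 and 35 to 60 in WT libraries. The opposite strand gene *Nop9* shares 76.3% of the exonic bases of *Cideb*. The 8 hepatocyte markers were high in every group, with a summed level of 67058 to 104624 CPM in WT and 77374 to 91430.4 CPM in KO livers on WD, and 38257 to 77796 CPM in WT and 38539 to 110086 CPM in KO livers on CDA-HFD. KO liver 5 on CDA-HFD stood apart from the other 4 KO livers, with a hepatocyte sum of 38539 CPM against 79171 to 110086 CPM. In that liver the 8 macrophage markers summed to 1963 CPM against 517 to 667 CPM, the 8 stellate cell markers to 2922 CPM against 813 to 949 CPM, and the 6 cholangiocyte markers to 649.5 CPM against 68.6 to 171 CPM. In bulk liver, fewer hepatocytes and less RNA per hepatocyte cannot be told apart. Where they rest on KO livers on CDA-HFD, counts of called lipogenic genes and *Scd1* fold changes are therefore given with and without KO liver 5. Marker counts and levels per kilobase or per hepatocyte marker include that liver.

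The stretches upstream of *Mlxipl*, *Acacb* and *Fasn* are shown because the first pair rose in KO livers on CDA-HFD while the synthase did not pass the test. The sequences are the 250 bases before an annotated start, from RefSeq on GRCm38.p6, written 5′ to 3′ in the direction of transcription. Capitals mark a sterol regulatory element (TCACNCCAC), an E-box (CACGTG) or an NF-Y box (CCAAT, or ATTGG on the other strand).
Mlxipl, chr5:135106641-135106890, + strand: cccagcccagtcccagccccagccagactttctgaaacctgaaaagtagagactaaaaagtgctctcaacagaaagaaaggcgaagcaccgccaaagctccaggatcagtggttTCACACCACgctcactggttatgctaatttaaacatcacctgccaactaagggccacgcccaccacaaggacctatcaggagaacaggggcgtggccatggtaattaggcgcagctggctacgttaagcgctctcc
Mlxipl, chr5:135089640-135089889, + strand: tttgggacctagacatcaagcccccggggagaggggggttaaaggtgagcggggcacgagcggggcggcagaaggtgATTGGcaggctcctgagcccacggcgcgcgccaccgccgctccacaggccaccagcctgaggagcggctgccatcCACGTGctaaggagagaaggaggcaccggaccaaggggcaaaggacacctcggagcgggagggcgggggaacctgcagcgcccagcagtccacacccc
Acacb, chr5:114165268-114165517, + strand: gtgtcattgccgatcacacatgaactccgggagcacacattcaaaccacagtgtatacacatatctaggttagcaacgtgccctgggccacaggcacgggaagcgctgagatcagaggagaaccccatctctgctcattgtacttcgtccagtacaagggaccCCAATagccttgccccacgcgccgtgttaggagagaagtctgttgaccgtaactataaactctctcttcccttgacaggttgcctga
Fasn, chr11:120824548-120824797, - strand: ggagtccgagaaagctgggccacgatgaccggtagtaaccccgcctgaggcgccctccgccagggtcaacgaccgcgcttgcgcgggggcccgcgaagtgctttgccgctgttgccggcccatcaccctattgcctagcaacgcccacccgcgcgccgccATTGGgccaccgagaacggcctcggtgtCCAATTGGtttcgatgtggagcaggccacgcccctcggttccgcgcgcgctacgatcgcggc
The RefSeq table matched 9 of the 10 genes, with 13 starts, and *Scd1* is named only. Each start was searched on both strands from 250 bases before it to 50 after it. The sterol regulatory element was found at 1 of the 13 starts, in *Mlxipl*, and in 1.24% of all 32851 promoters. The E-box was found at 1 start, the other *Mlxipl* start, and in 7.15% of all promoters. The looser CANNTG, which contains the E-box, was found at 10 starts and in 72.3% of promoters. NF-Y boxes were found at 8 starts in 7 of the genes and in 37.4% of promoters. *Fasn* has 3 of them, of which the pair written CCAATTGG overlap each other and a CANNTG. The Sp1 box GGGCGG was found at 5 starts and in 35.7% of promoters, and TATAAA at 1 start, in *Acacb*, and in 13.6% of promoters.

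*Scd1* dominated the pathway on WD, while on CDA-HFD it had the highest mean in WT livers, with a range overlapping the next gene, and nearly the lowest in KO livers. *Scd1* encodes the desaturase that makes oleate from stearate. Per kilobase of exon it averaged 11261 CPM in WT livers on WD, and *Thrsp*, the next gene, averaged 357 CPM per kb. *Thrsp* encodes Spot14, a small nuclear and cytosolic protein that rises with lipogenesis. Then came *Fasn* at 297, *Srebf1* at 137, *Acly* at 105.1, *Me1* at 74.9, *Mlxipl* at 66.1, *Acacb* at 64.4, *Elovl6* at 51.4 and *Acaca* at 16.5 CPM per kb. Of these neighbors, only *Scd1* and *Thrsp*, *Fasn* and *Srebf1*, and *Elovl6* and *Acaca* had ranges over 5 livers that did not overlap. The length used joins all annotated exons of a gene, 17.1 kb for *Acaca*, so the order and these overlaps depend on it. The order in KO livers on WD was the same apart from *Mlxipl* at 88.2 CPM per kb, which came before *Me1* at 79.2. In WT livers on CDA-HFD all neighbors overlapped, from *Scd1* at 42.8 to *Acaca* at 4.53 CPM per kb. In KO livers on CDA-HFD *Thrsp* came first at 53.5 CPM per kb, and *Scd1* was 9th of the 10 at 4.63. KO liver 5 was the highest of them for *Scd1* at 14.2 CPM per kb, and the lowest was 1.39. The place of *Scd1* above *Acaca*, 10th at 4.51, rests on KO liver 5. *Scd1* alone held 3.28% to 5.72% of all gene reads in livers on WD, where it ranked 1st or 2nd among all genes, and 0.000715% to 0.0668% on CDA-HFD.

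**Figure D1:**
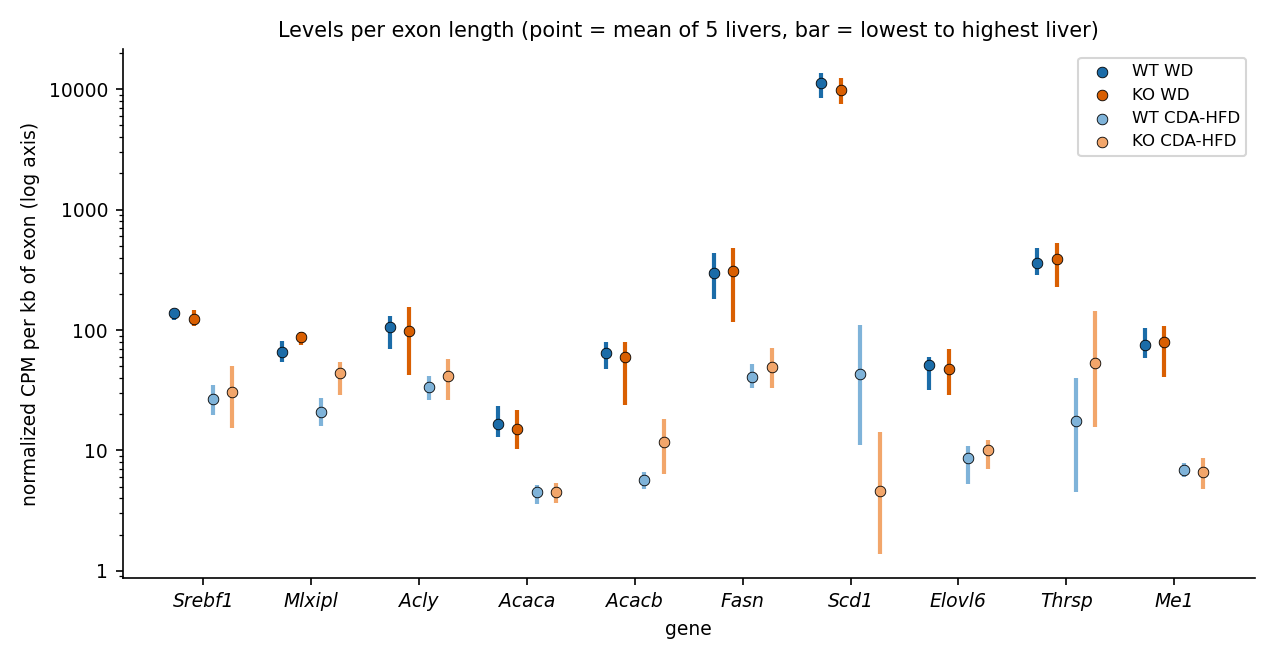
Mean level of each gene per kilobase of annotated exon in each of the 4 groups, on a log axis in CPM per kb, with bars from the lowest to the highest of 5 livers. On WD *Scd1* sits far above the other genes at 11261 CPM per kb in WT livers. In KO livers on CDA-HFD it is near the bottom at 4.63, with KO liver 5 included.

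On WD, none of the 10 genes passed the test between KO and WT livers (edgeR quasi-likelihood F test, Benjamini-Hochberg adjusted p under 0.05 over all 15848 genes tested). At an unadjusted p under 0.05 there was 1 gene, *Mlxipl*, and with DESeq2 0 of the 10 passed. Over all genes 0.0126% passed as higher and 0.0631% as lower, so few genes of any kind passed on this diet. None of the 10 had groups that did not overlap, against 2.22% of all genes. The median log2 fold change of the 10 genes was -0.10, and that of all genes was 0.01.

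*Scd1* was 41025, 51714, 60637, 66349 and 55722 CPM in the 5 WT livers on WD. It was 60224, 36807, 49813, 38280.0 and 54327 CPM in the KO livers. The groups overlapped, with the lowest pair among the KO livers and the highest among the WT livers. The log2 fold change was -0.20 with an SE of 0.20 and a 95% confidence interval from -0.65 to 0.25 (adjusted p = 0.758).

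*Mlxipl* encodes ChREBP, the sugar-responsive transcription factor. It was 328, 300.2, 401, 446 and 355 CPM in WT livers on WD, and 524, 529, 415, 537 and 436 CPM in KO livers. In 3 of the 5 KO livers it was above every WT liver, and the other KO livers lay within the WT range. Its log2 difference of 0.42 (SE 0.12) had an exact two-sided permutation p of 0.0238 for this gene alone, and an adjusted p of 0.286 over all genes. *Srebf1*, which encodes SREBP1, was 680.3 to 831 CPM in WT and 614 to 823 CPM in KO livers, and its log2 difference was -0.15 (SE 0.10, adjusted p = 0.635).

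Among the enzymes on WD, *Acly* averaged 555 ± 118 CPM in the WT and 518 ± 217 CPM in the KO group. The acetyl-CoA carboxylases *Acaca* and *Acacb* averaged 282 ± 76.5 and 620.4 ± 110.0 CPM in WT livers, and 256 ± 75.9 and 580.3 ± 223 CPM in KO livers. *Fasn* averaged 3249 ± 1025 CPM in the WT and 3362 ± 1577 CPM in the KO group. *Elovl6*, which lengthens palmitate to stearate, averaged 330.4 ± 77.2 and 306 ± 92.1 CPM, *Thrsp* 782 ± 171 and 849 ± 234 CPM, and *Me1*, the NADPH-making malic enzyme, 288 ± 70.1 and 305 ± 109 CPM. Each of these 7 genes overlapped between the groups, with log2 fold changes from -0.14 for *Acaca* to 0.12 for *Thrsp*, and each of these differences was smaller than its SE. For *Fasn* the 95% interval ran from -0.67 to 0.77, so with 5 livers a group a change within that range either way was not excluded. KO liver 4 on WD was the lowest of its group for 7 of the 10 genes.

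**Figure D2:**
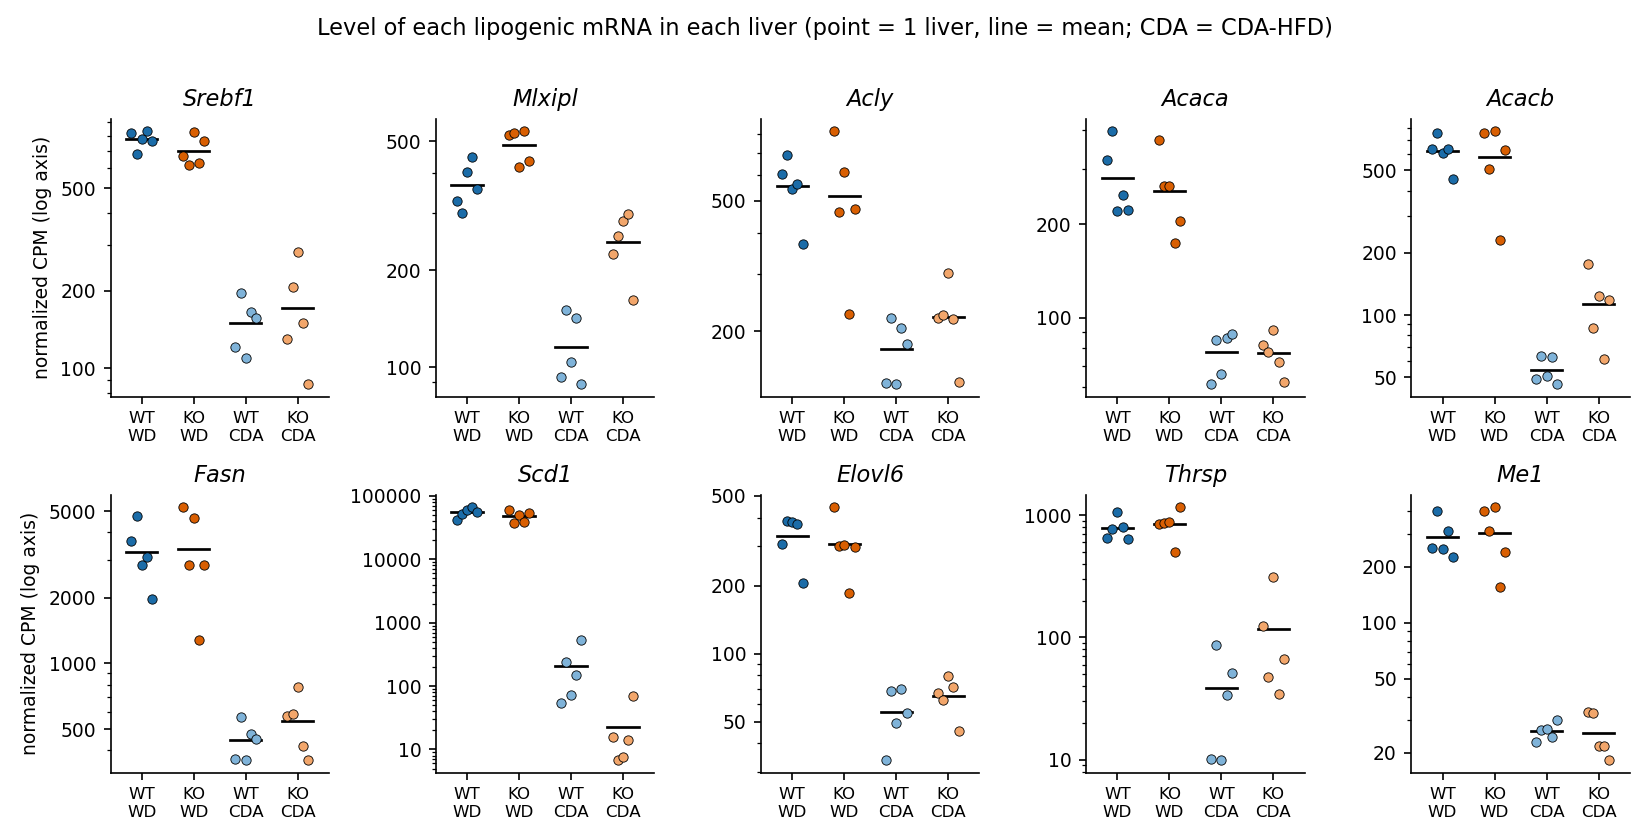
Level of each of the 10 genes in each of 20 livers in normalized CPM, 1 panel per gene with its own log axis, points for livers and lines for group means. The livers on WD lie above those on CDA-HFD in every panel except for 1 KO liver on each diet in *Acly*, and *Mlxipl* is the only panel where the WT and KO livers on CDA-HFD do not overlap.

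On CDA-HFD, KO and WT livers differed in 3 of the 10 genes. *Mlxipl* and *Acacb* rose and *Scd1* fell, while *Srebf1*, *Acly*, *Acaca*, *Fasn*, *Elovl6*, *Thrsp* and *Me1* did not pass. Over all 17204 genes tested, 8.19% passed as higher and 7.29% as lower, so 2 higher and 1 lower among 10 is not far from the share of all genes. The median log2 fold change was 0.26 over the 10 genes and 0.0050 over all genes. Groups did not overlap for 1 of the 10, *Mlxipl*, against 9.57% of all genes. Without KO liver 5, 4 of the 10 passed, 3 higher and 1 lower, the added gene being *Acly*, their median was 0.38, the groups did not overlap for 2 of the 10, *Mlxipl* and *Scd1*, and 7201 genes passed over the whole table, against 2664 with that liver. In the other fits that left out 1 liver, 1 of the 10 passed without WT liver 5 or without KO liver 3, and 2 or 3 without any of the others.

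*Scd1* was 54.5, 238, 71.6, 148 and 534 CPM in WT livers on CDA-HFD. In KO livers it was 15.6, 6.78, 7.51, 14.0 and 69.4 CPM, from 107 to 1157 reads. In 4 of the 5 KO livers it was below every WT liver, and KO liver 5 was above 1 WT liver. The group means were 209 ± 196 and 22.7 ± 26.4 CPM, 9.23-fold lower in KO livers, and the spread within each group was about as large as its mean. The fold was 19.1 without KO liver 5 and 5.65 without WT liver 5. The log2 fold change was -3.21 with an SE of 0.81 and a 95% interval from -4.98 to -1.44 (adjusted p = 0.0266), and the exact two-sided permutation p for this gene was 0.0159. This was the 5th lowest log2 fold change of the 17204 genes. Without KO liver 5 the log2 fold change was -4.26 (adjusted p = 0.00092). Without WT liver 5, the highest WT liver, it was -2.51 (adjusted p = 0.0664), and without KO liver 1, 2, 3 or 4 it had an adjusted p of 0.0588 to 0.0709. The direction was the same in all 18 alternatives.

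*Mlxipl* was 93.5, 150.1, 104, 142 and 88.7 CPM in WT livers and 224, 255, 284, 299 and 161 CPM in KO livers on CDA-HFD. Every KO liver was above every WT liver, including KO liver 5, the lowest KO liver. The log2 fold change was 1.07 (SE 0.20, adjusted p = 0.0132), and the exact two-sided permutation p was 0.00794, the smallest that 5 livers against 5 allow. It passed in all 18 alternatives, with adjusted p of at most 0.0411.

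*Acacb* encodes the carboxylase at the mitochondrial surface, whose malonyl-CoA inhibits fatty acid import into mitochondria. It was 49.0, 63.2, 50.9, 62.6 and 46.3 CPM in WT livers and 176, 86.5, 123, 61.4 and 119 CPM in KO livers on CDA-HFD. In 4 of the 5 KO livers it was above every WT liver, and KO liver 4 lay within the WT range. The log2 fold change was 1.05 (SE 0.24, adjusted p = 0.0203), and the exact two-sided permutation p was 0.0238. The adjusted p was 0.0551 to 0.0560 without WT liver 3, WT liver 5 or KO liver 3. *Acaca*, whose cytosolic carboxylase supplies synthesis, was 61.2 to 88.5 CPM in WT and 62.3 to 91.3 CPM in KO livers, and the 95% interval of its log2 difference, -0.01, ran from -0.31 to 0.29.

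*Thrsp* had the widest spread of the genes that did not pass. It was 10.2, 86.7, 9.94, 33.8 and 51.4 CPM in WT livers and 125, 47.5, 312, 34.4 and 66.7 CPM in KO livers, and the groups overlapped. Its log2 difference was 1.60 (SE 0.72, adjusted p = 0.138), and it passed only when all 20 livers entered 1 fit (adjusted p = 0.0447).

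The remaining genes overlapped between the groups and did not pass with all livers in the fit. *Acly* and *Fasn* were above every WT liver in 3 of the 5 KO livers, and *Fasn* was below every WT liver in 1. *Srebf1* was 110.0 to 196 CPM in WT and 86.9 to 283 CPM in KO livers on CDA-HFD (log2 difference 0.19, adjusted p = 0.654). *Acly*, the citrate-cleaving enzyme, was 138 to 219 CPM and 139 to 301 CPM (0.32, adjusted p = 0.283, and 0.44 with adjusted p = 0.04996 without KO liver 5). *Fasn* was 360.2 to 571 and 360.1 to 776 CPM (0.29, adjusted p = 0.360), and *Elovl6* 33.7 to 69.7 and 45.3 to 79.2 CPM (0.23, adjusted p = 0.439). *Me1* was 23.0 to 30.2 and 18.3 to 33.0 CPM (-0.05, adjusted p = 0.867). KO liver 5 was the lowest KO liver for 7 of the 10 genes and the highest for *Scd1*.

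Markers of some other cells moved with this comparison. Of the 6 cholangiocyte, 6 endothelial and 5 lymphocyte markers tested, 0 passed in either direction. Of the 8 hepatocyte markers 2 rose in the KO livers, 3 of 8 macrophage and 2 of 8 stellate cell markers were lower, and all 4 neutrophil markers tested were lower. The macrophage sum was 1589.5 to 3374 CPM in WT and 517 to 1963 CPM in KO livers, the stellate cell sum 1659.6 to 2859 and 813 to 2922 CPM, and the cholangiocyte sum 363 to 784 and 68.6 to 649.5 CPM. Per 1000 CPM of the 8 hepatocyte markers, a measure added after the values were seen, *Mlxipl* was 1.83 to 2.44 CPM in WT and 2.59 to 4.18 CPM in KO livers, again without overlap. On the same scale *Acacb* was 0.805 to 1.28 and 0.558 to 3.08 CPM, and *Scd1* 1.40 to 11.2 and 0.0685 to 1.80 CPM. The ranges of both genes overlapped on it, and the KO range of *Acacb* enclosed the WT range. Group means in WT and KO livers were 2.73 and 2.08 for *Srebf1*, 3.20 and 2.76 for *Acly*, and 8.12 and 6.91 for *Fasn*. They were 0.981 and 0.826 for *Elovl6*, 1.42 and 1.01 for *Acaca*, and 0.496 and 0.337 for *Me1*. *Thrsp* went the other way, at 0.652 and 1.40. The part of cell composition in the 3 calls was not tested further.

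**Figure D3:**
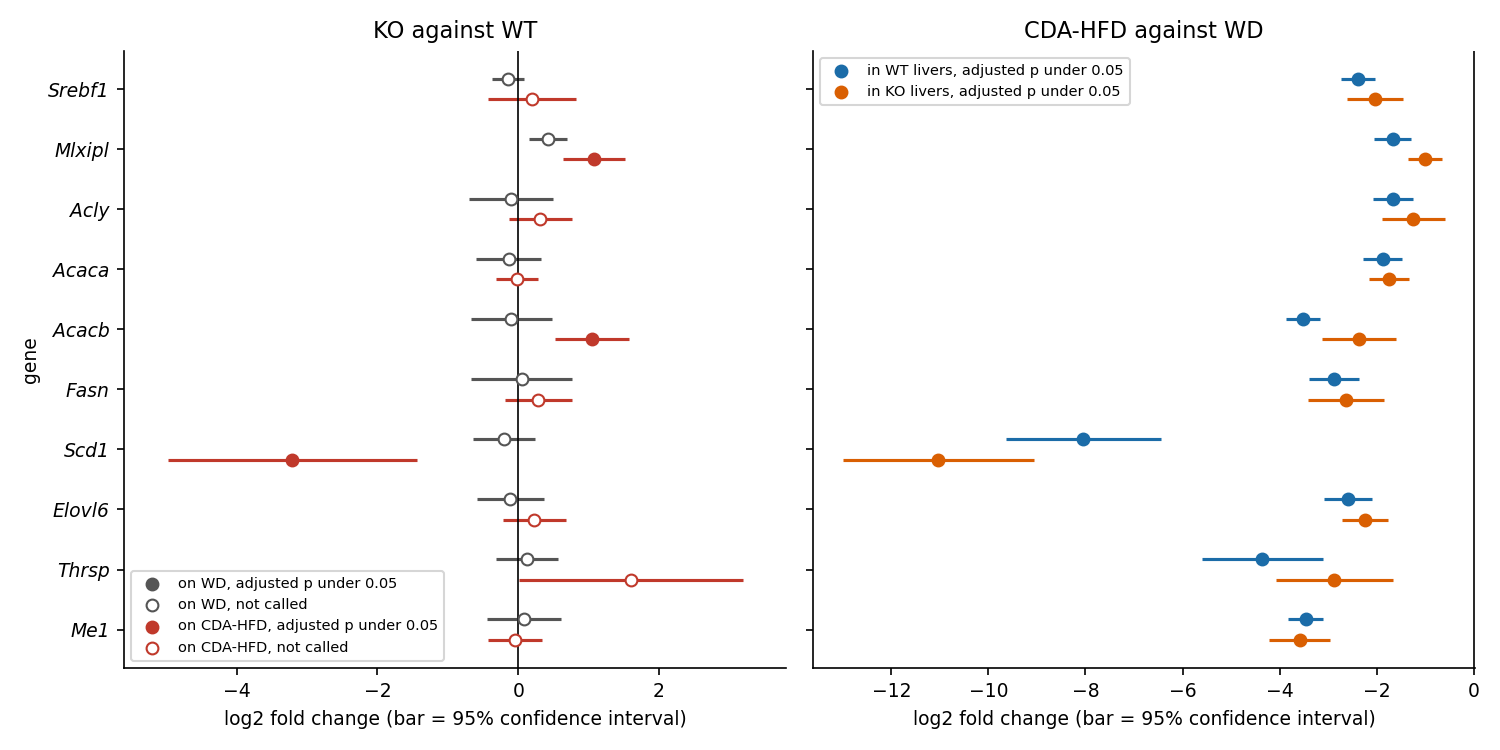
Log2 fold change of each gene with its 95% confidence interval from edgeR in the KO against WT and the CDA-HFD against WD comparisons, with filled points for genes that passed. KO against WT, the genes that passed are *Mlxipl*, *Acacb* and *Scd1* on CDA-HFD, and all 10 genes lie below 0 in both diet comparisons.

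All 10 genes were lower on CDA-HFD than on WD in WT livers. Over all 16726 genes tested, 25.2% passed as lower and 25.9% as higher, and the median log2 fold change was -2.73 over the 10 genes and -0.0032 over all genes. All 10 had groups that did not overlap, against 37.1% of all genes, and each had an exact two-sided permutation p of 0.00794. Diet, time on diet and any batch between the diets cannot be told apart in this comparison.

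*Scd1* fell most, from a mean of 55089.6 ± 9580.5 CPM to 209 ± 196 CPM, 263-fold. Without WT liver 5 on CDA-HFD, which was at 534 CPM, the mean on CDA-HFD was 128 CPM and the fold 431. Its log2 fold change was -8.05 (SE 0.73, adjusted p = 1.54e-05), the 5th lowest of all 16726 genes. It was the lowest of the 1743 genes with a mean of at least 100 CPM in WT livers on WD, a cut made on the group where *Scd1* is high. *Thrsp* fell by 4.35 on the log2 scale, from 782 ± 171 to 38.4 ± 32.1 CPM. *Acacb* fell by 3.52, from 620.4 ± 110.0 to 54.4 ± 7.96 CPM, and *Me1* by 3.46, from 288 ± 70.1 to 26.3 ± 2.76 CPM.

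*Fasn* fell by 2.88 on the log2 scale, from 3249 ± 1025 to 444 ± 87.6 CPM, with livers at 3634, 4739.7, 2829, 3066 and 1976 CPM on WD and at 363, 571, 360.2, 476 and 452 CPM on CDA-HFD. *Elovl6* fell by 2.59 and *Acaca* fell by 1.87, to 55.2 ± 14.8 and 77.4 ± 12.7 CPM. Of the regulators, *Srebf1* fell by 2.38, from 774 ± 59.5 to 149.7 ± 34.8 CPM, and *Mlxipl* by 1.67, from 366 ± 58.1 to 116 ± 28.5 CPM. *Acly* had the smallest fall, 1.66, from 555 ± 118 to 176 ± 37.4 CPM. The adjusted p of these genes ran from 2.05e-07 for *Acacb* to 0.000103 for *Thrsp*.

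In WT livers 5 of 8 hepatocyte and 4 of 6 endothelial markers were lower on CDA-HFD. Of the others, 7 of 8 stellate cell, 6 of 6 cholangiocyte and 4 of 8 macrophage markers were higher, and 1 macrophage marker was lower. Per 1000 CPM of hepatocyte markers, *Scd1* was 579.6 to 729 CPM on WD and 1.40 to 11.2 CPM on CDA-HFD, and *Fasn* 24.9 to 66.8 and 6.12 to 9.50 CPM, so neither overlapped on this scale. The adipocyte genes *Adipoq* and *Lep* were at 0 to 2 and 0 to 1 reads in every liver, while *Cfd* had 4 to 1221 reads on WD and 0 to 5 on CDA-HFD.

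In KO livers all 10 genes were lower on CDA-HFD as well. Over all 16387 genes tested, 7.85% passed as lower and 9.19% as higher. The median log2 fold change was -2.30 over the 10 genes and 0.0033 over all genes. For 9 of the 10 the groups did not overlap, against 15.2% of all genes. In the other gene, *Acly*, KO liver 4 on WD at 225 CPM was below KO liver 3 on CDA-HFD at 301 CPM. Without KO liver 5 on CDA-HFD all 10 again passed as lower, with a median of -2.26, 9 again did not overlap, and 2881 genes passed over the whole table against 2792.

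In this comparison 3 of 8 macrophage, 2 of 8 stellate cell and 3 of 6 cholangiocyte markers were higher on CDA-HFD, and 0 of 8 hepatocyte markers passed in either direction. The macrophage sum was 251 to 491 CPM on WD and 517 to 1963 CPM on CDA-HFD, or 517 to 667 CPM without KO liver 5. The stellate cell sum was 333 to 821 and 813 to 2922 CPM, and the cholangiocyte sum 37.4 to 84.1 and 68.6 to 649.5 CPM. Their part in the lower lipogenic mRNA was not tested.

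*Scd1* fell from 47890.1 ± 10154 to 22.7 ± 26.4 CPM in KO livers, 2114-fold. KO liver 5 was the highest on CDA-HFD at 69.4 CPM, and leaving it out the fold was 4366 and the log2 fold change -12.10. With all 5 livers the log2 fold change was -11.03 (SE 0.90, adjusted p = 5.83e-05), the lowest of all 16387 genes. The log2 fold change was -3.58 for *Me1*, -2.87 for *Thrsp* (-3.65 without KO liver 3 on CDA-HFD), -2.63 for *Fasn*, -2.36 for *Acacb*, -2.24 for *Elovl6* and -2.03 for *Srebf1*. The smallest changes were *Acaca* at -1.74, *Acly* at -1.24 (adjusted p = 0.0174) and *Mlxipl* at -1.01. The KO livers on WD and on CDA-HFD also enter the KO against WT comparisons, so these values are not independent of those.

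The difference between the KO effects on the 2 diets was tested as an interaction over all 20 livers. None of the 10 genes passed, against 0.331% of 17804 genes that passed as higher and 0.225% as lower on CDA-HFD, and with DESeq2 0 of the 10 passed. At an unadjusted p under 0.05 there were 3, *Scd1*, *Acacb* and *Mlxipl*. The interaction of *Scd1* was -3.00 on the log2 scale (SE 0.85, 95% interval -4.78 to -1.23, adjusted p = 0.116), that of *Acacb* 1.15 (SE 0.38, adjusted p = 0.171) and that of *Mlxipl* 0.67 (SE 0.24, adjusted p = 0.205). Without KO liver 5 on CDA-HFD, *Scd1* passed at -4.05 (adjusted p = 0.00274) and *Mlxipl* at 0.78 (adjusted p = 0.0258), and 2138 genes passed over the whole table against 99 with that liver. That *Scd1* passed on CDA-HFD and not on WD is thus not shown as a difference between the diets. KO liver 5 had the highest *Scd1* of its group, so the fit without it cannot show one.

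*Scd1* moved apart from the other genes and from its relative *Scd2* within the same livers, as the plot of *Scd1*, *Scd2* and the *Scd1* to *Fasn* ratio shows. Reads of *Scd1* per *Fasn* read, a ratio chosen after the values were seen, were 10.9 to 28.2 on WD in the WT group, with 21.4 as the median, and 10.7 to 29.9 in the KO group, with 12.9. They were 0.150 to 1.18 on CDA-HFD in the WT group, with 0.310 as the median, and 0.00968 to 0.193 in the KO group, with 0.0271. KO liver 5 was the highest there, and the other KO livers were at 0.00968 to 0.0333. *Acacb* reads per *Acaca* read were 0.523 to 0.801 in WT and 0.853 to 2.15 in KO livers on CDA-HFD, where the ranges did not overlap, and 1.92 to 2.76 and 1.33 to 3.06 on WD, where they did. *Mlxipl* reads per *Srebf1* read were 0.564 to 0.943 in WT and 1.00 to 1.99 in KO livers on CDA-HFD, and 0.400 to 0.537 and 0.505 to 0.861 on WD. The other 9 genes summed to 893 to 1465 CPM in WT and 1059 to 2271 CPM in KO livers on CDA-HFD.

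*Scd2*, a desaturase of the same family, was 18.4 to 72.2 CPM in WT and 16.9 to 63.7 CPM in KO livers on WD, and 32.8 to 64.9 and 21.1 to 49.3 CPM on CDA-HFD. Its log2 differences were 0.22 between the diets in WT livers (adjusted p = 0.608) and -0.73 between KO and WT livers on CDA-HFD (adjusted p = 0.0600). *Scd3* was 0.912 to 3.13 CPM on WD and 0 to 0.180 CPM on CDA-HFD, and *Scd4* was at most 1.01 CPM. *Scd1* shares 3.15% of its 75-base windows with these relatives and *AC123853.3*. The gene counts leave out non-unique alignments, so reads from such windows may be missing from these genes. Whether any *Scd3* reads came from *Scd1* was not tested.

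**Figure D4:**
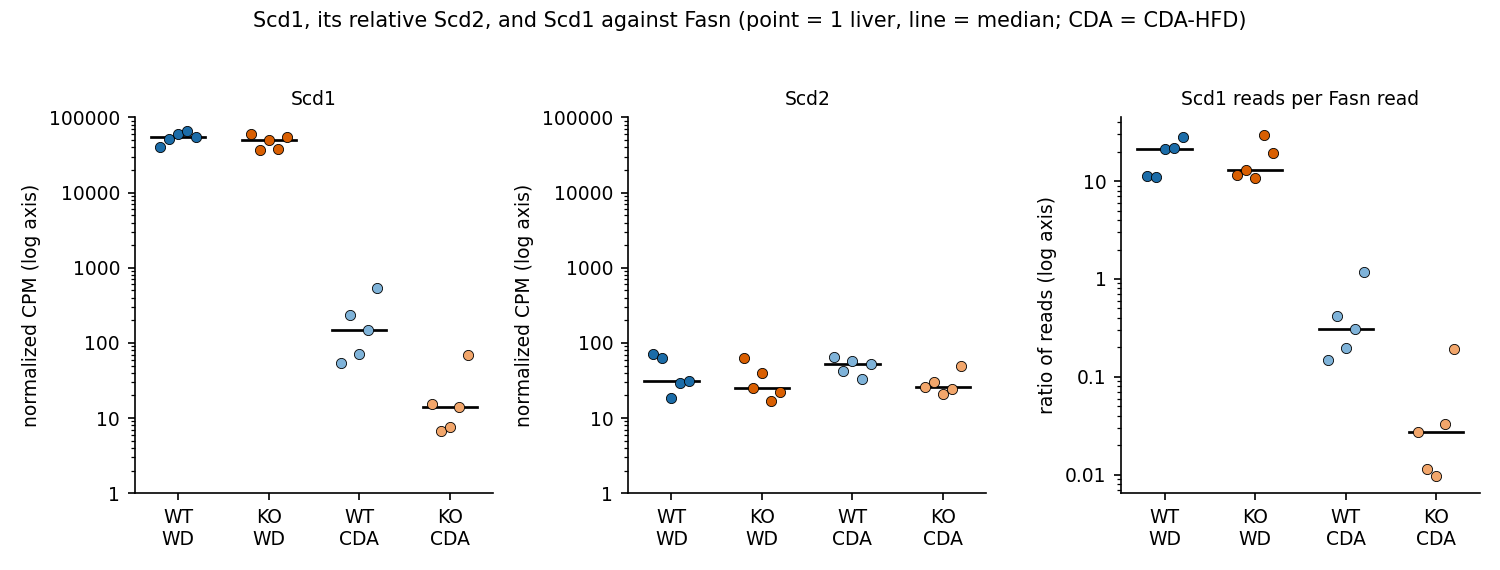
*Scd1* and *Scd2* in normalized CPM and *Scd1* reads per *Fasn* read in each of 20 livers, all on log axes, with points for livers and lines for medians. *Scd2* stays between 16.9 and 72.2 CPM in every group, while *Scd1* per *Fasn* read has a median of 21.4 on WD in the WT group and of 0.0271 on CDA-HFD in the KO group.

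Other genes of fatty acid and carbon metabolism or their regulation were counted in 4 lists, not all of them genes of DNL itself. The lists held 21 regulators, 20 genes of carbon and NADPH supply, 25 of chain length, desaturation and esterification, and 5 of malonyl-CoA and synthase partners. On WD none of them passed between KO and WT livers with edgeR, and 1 of the chain length list passed with DESeq2. On CDA-HFD, where 8.19% of all genes passed as higher and 7.29% as lower, 0 regulators were higher and 2 lower in KO livers, *Pparg* at -0.59 (adjusted p = 0.0137), a nuclear receptor of fat storage, and *Prkaa1* at -0.44 (adjusted p = 0.0206), a catalytic subunit of AMPK. Of the carbon and NADPH supply genes 3 were higher and 1 lower. *Khk*, the fructokinase, rose by 0.83 (adjusted p = 0.0191), the pyruvate carboxylase *Pcx* by 0.57 (adjusted p = 0.0278) and the acetyl-CoA synthetase *Acss2* by 0.71 (adjusted p = 0.0473), while *G6pdx*, which makes NADPH in the pentose phosphate pathway, fell by 1.17 (adjusted p = 0.0182).

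In the chain length list 3 of 23 tested were higher and 1 lower in KO livers on CDA-HFD. The elongase *Elovl3* rose from 3.45 ± 0.671 to 14.5 ± 5.76 CPM (log2 fold change 2.07, adjusted p = 0.00461), the triglyceride synthase *Dgat2* from 274 ± 52.7 to 504 ± 122 CPM (0.88, adjusted p = 0.0182) and the acyl-CoA synthetase *Acsl1* from 473 ± 239 to 1246 ± 528 CPM (1.39, adjusted p = 0.0392). *Fads3*, of the fatty acid desaturase family, fell by 0.82 (adjusted p = 0.0449). None of the 5 malonyl-CoA genes passed. The counts also depended on single livers and on the tool. Leaving out 1 liver, 0 to 13 supply genes, 1 to 12 regulators, 1 to 11 chain length genes and 0 to 3 malonyl-CoA genes passed, with 0 supply genes and 1 chain length gene without WT liver 3 or KO liver 1. With DESeq2 5 regulators were higher and 2 lower, 9 supply genes higher and 2 lower, and 4 chain length genes higher and 4 lower. Without KO liver 5 the counts higher and lower were 8 and 4 regulators, 11 and 2 supply genes, 7 and 4 chain length genes, and 3 and 0 malonyl-CoA genes. Medians over the 4 lists were 0.23, 0.29, 0.07 and 0.26 on the log2 scale, against 0.0050 over all genes.

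Between the diets most of these genes were lower on CDA-HFD in WT livers, where 25.2% of all genes passed as lower and 25.9% as higher. In those livers 14 of 21 regulators were lower and 3 higher, 17 of 20 supply genes lower and 1 higher, 18 of 24 chain length genes lower and 2 higher, and 5 of 5 malonyl-CoA genes lower. In KO livers, where 7.85% of all genes passed as lower and 9.19% as higher, 6, 13, 12 and 4 were lower, and 1 regulator, *Srebf2*, was higher. Without KO liver 5 on CDA-HFD, 7, 13, 13 and 2 were lower. *Pklr*, the liver pyruvate kinase and a classic ChREBP target, had log2 fold changes of -2.63 in WT and -2.07 in KO livers, and *Khk* of -2.02 and -1.41. For *Pcx* they were -1.43 and -0.86, and for the transketolase *Tkt* -0.62 and -0.64.

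Of the chain length genes, the elongase *Elovl5* had log2 fold changes of -2.72 in WT and -2.24 in KO livers, the lipid droplet protein *Pnpla3* of -3.44 and -4.08, and *Acsl5* of -1.58 and -1.16. For *Elovl3* they were -3.90 and -2.04, and for *Scd3* -5.77 and -4.91. Of the regulators, *Insig2*, which holds SREBPs in the endoplasmic reticulum, had log2 fold changes of -1.85 in WT and -1.01 in KO livers. The log2 fold changes of *Foxo1* were -1.19 and -0.85 and those of *Ppargc1b* -1.07 and -1.002 in WT and KO livers. Those of the clock repressor *Nr1d1* were -0.53 and -1.12. *Srebf2*, which drives cholesterol synthesis, rose by 0.68 and 0.88.

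The genes that rose in WT livers besides *Srebf2* were *Mbtps2*, *Prkaa1*, *G6pdx*, *Elovl1* and *Elovl7*, named after their values were seen. *G6pdx* was 11.8 ± 3.55 CPM on WD and 28.7 ± 4.52 CPM on CDA-HFD in WT livers. Of the malonyl-CoA genes, *Mcat*, *Oxsm*, *Mlycd* and *Aasdhppt* had log2 fold changes of -0.59, -0.77, -0.68 and -0.35 in WT livers and of -0.49, -0.49, -0.77 and -0.34 in KO livers. With scaling by library size only, the counts higher and lower in WT livers became 7 and 4 regulators, 2 and 12 supply genes, 4 and 16 chain length genes, and 0 and 1 malonyl-CoA genes, and in KO livers 1 and 4, 0 and 8, 3 and 10, and 0 and 0. That scaling moved the median of all genes to 0.42 in WT and 0.25 in KO livers, and its split over all genes was 9120 higher and 1570 lower in WT livers and 3371 and 553 in KO livers, against 4335 and 4207, and 1506 and 1286, with TMM. On CDA-HFD it moved the split of KO against WT livers from 1409 higher and 1255 lower to 517 and 1192, with a median of -0.19, and the interaction from 59 and 40 to 18 and 26, with a median of -0.15. The 10 lipogenic genes gave 10, 10, 3 and 0 calls under it in these 4 comparisons, the numbers found with TMM.

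**Figure D5:**
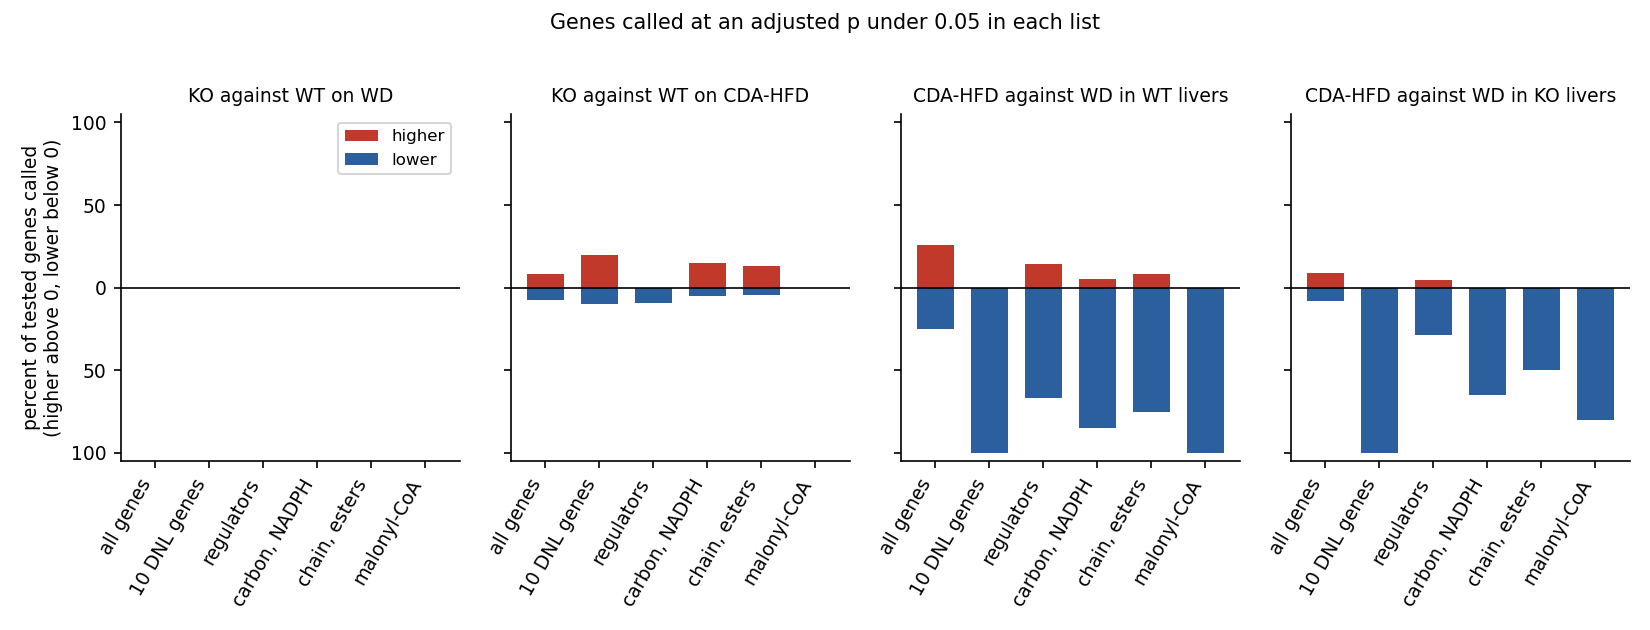
Share of each list that passed as higher or lower in each comparison, in percent of the genes tested, with the share of all genes beside it. The bars for lower genes between the diets reach 100% for the 10 lipogenic genes in WT and in KO livers, and on WD the bars between KO and WT livers are at 0 for every list.

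Likeness to *Scd1* was measured by Pearson's r of log2 CPM over the 20 livers, among 11840 genes, as a description. The livers share 2 diets that lie far apart, so r mostly ranks genes by how they differ between diets. The highest were *Adam11* at 0.966, *Dcaf12l1* at 0.963, *Vldlr* at 0.946, *Me1* at 0.944 and *Pnpla3* at 0.943. The other 8 lipogenic genes were between 0.660 for *Mlxipl* and 0.916 for *Acaca*. After the mean of its group was taken from each liver, the highest were *4833420G17Rik* at 0.762, *Fkbp14* at 0.718, *Clu* at 0.708, *Gm39272* at 0.693 and *Hat1* at 0.682, none of them a lipogenic gene. On that scale the lipogenic genes lay between -0.315 for *Mlxipl* and 0.355 for *Thrsp*, so within groups none of them followed *Scd1* closely.

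For 75-base windows of their transcripts, 26.8% of *Acaca* and 20.01% of *Me1* occur in other genes, chiefly the pseudogenes *Gm5182* and *Gm7049*, and the values of both are uncertain to that extent. The share was at most 3.15% in the other 8. By GENCODE M21 on GRCm38, *Scd1* lies on chromosome 19 from 44394455 to 44407879 on the minus strand, with *Scd2*, *Scd3* and *Scd4* beside it, *Mlxipl* on chromosome 5 from 135089890 to 135138382 and *Acacb* on chromosome 5 from 114146535 to 114250761, both on the plus strand, and *Fasn* on chromosome 11 from 120805846 to 120824547 on the minus strand.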

How the data were processed

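RNA-seq of 20 mouse livers was deposited by the authors as raw read counts per gene, whole numbers without normalization, with the 5 summary entries that htseq-count writes, which were left out. The submitters' processing notes name mm10, and the aligner and its version are not given in the sources used here. The labels name a directional kit and the study's methods another, so it is not known whether counting used the strand. Groups came from the labels. The study's methods state that its data came from several experiments, on different days and with different litters. Which livers shared a litter, day or batch is not given. The tests treat the livers as independent, which could not be checked. No libraries were copies (chi-square per gene of 6.94 to 124 over 40 pairs within groups).

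Counts were fitted in R 4.3.3 with edgeR 4.0.16 (filterByExpr, TMM, glmQLFTest), each comparison on its 10 livers and the interaction on 20, with Benjamini-Hochberg adjustment over all genes tested. Standard errors came from the F statistic, and single genes had exact two-sided permutation tests of 252 splits (scipy 1.17.1). For correlations, log2 CPM had a prior count of 2. Plots were made with matplotlib 3.10.9 under Python 3.11.15. The fits were tested on simulated data. Same-numbered livers were not paired: the correlations of their residuals ran from -0.268 to 0.284 on WD and from -0.367 to 0.347 on CDA-HFD.

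The 10 genes and all lists were chosen with earlier results of these data known. Named were all 10 genes, *Cideb*, up to 4 called genes with the smallest adjusted p of each of the 4 other lists in each comparison, and the 5 genes most like *Scd1* by either measure. A result that this rule also names is not reported here. *Nop9*, *Scd2* to *Scd4*, the pseudogenes, the genes marked so and all ratios were named after the values were seen. Alternatives were RLE factors, library size only, DESeq2 1.42.0, a robust spread estimate, no filter, at least 10 reads in every library, all livers in 1 fit, a replicate block and each library left out, and for the likeness a prior count of 0.5, rank correlation and removal of group means.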

Additional observations from a re-analysis of the deposited data

Results flagged for a closer look

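In KO livers on CDA-HFD, *Scd1* was 69.4 CPM in KO liver 5 and 15.6 CPM in the nearest of the other 4 livers, a gap of 0.859 of the range of the group, above Dixon's critical value of 0.71 for 5 livers. It was the single value so marked among 44 groups of 5 livers, where chance marks about 1 in 20. The same liver had the lowest hepatocyte marker sum of its group, 38539 CPM. Whether the one accounts for the other was not tested.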

How the results depend on the processing

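In both diet comparisons all 10 genes passed as lower under every alternative run. On WD none of the 10 passed under any. On CDA-HFD, between KO and WT livers, 3 or 4 of the 10 passed under the other settings and 1 to 4 when 1 library was left out, and in the interaction 0 to 2 did. Directions that turned belonged to differences that never passed. When 1 library was left out, the log2 differences on WD ran from -0.32 to 0.080 for *Acly*, -0.30 to 0.019 for *Acaca*, -0.23 to 0.10 for *Acacb*, -0.16 to 0.25 for *Fasn*, -0.28 to 0.014 for *Elovl6*, -0.027 to 0.25 for *Thrsp* and -0.066 to 0.24 for *Me1*. On CDA-HFD they ran from -0.061 to 0.36 for *Srebf1*, -0.089 to 0.057 for *Acaca* and -0.16 to 0.054 for *Me1*, and in the interaction from -0.033 to 0.30 for *Acaca* and -0.29 to 0.016 for *Me1*. With library size only, *Srebf1* on CDA-HFD was -0.026 and the interaction of *Acaca* -0.043. With a replicate block, *Fasn* on WD was -0.036, and 0, 3, 10, 10 and 0 of the 10 genes passed in KO against WT on WD and on CDA-HFD, the diets in WT and in KO livers, and the interaction, as without it, while 2, 2459, 8343, 2044 and 63 genes passed over the whole table. With DESeq2 these were 164, 4144, 8815, 3658 and 434. Across the other settings genes called were 2 to 164, 1709 to 4170, 7198 to 10690.0, 2044 to 4476 and 44 to 434, and with 1 library left out 1 to 33, 709 to 7201, 7549 to 8723, 1568 to 2881 and 35 to 2138. Of the 5 genes most like *Scd1*, rank correlation shared 1 and removal of group means 0. The causes were not tested. Depth did not keep any of the 10 genes from being tested, and *Scd3* and *Scd4* had too few reads to be tested in every comparison.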
